A study of Rattus norvegicus with 6 samples.

Results

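The mitochondrial serine tRNA with anticodon GCT (mt-Ser-GCT) gave 2136 distinct small RNA sequences of the 77567 in the deposited alignment table. They are the sequences aligned to the mature or precursor mt-Ser-GCT that aligned to no nuclear tRNA, and 1 sequence that also matched a nuclear tRNA was left out. Each was counted once, whatever it matched among mitochondrial tRNAs, and is described by its first and last position, with position 1 at the 5′ end of the mature tRNA. Together they held 138406 reads. 480 matched the reference exactly and 1656 carried 1 mismatch, the most the table allows. 181 were read in all 6 libraries, 1206 in a single library, and 1067 were single reads.

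Small RNA libraries were made from muscle of Lewis rats, an inbred strain, aged 6 to 8 weeks, with 3 libraries titled experimental and 3 titled control. The titles alone gave the groups. The series title concerns acute rejection of composite tissue transplants, no label gives the treatment of the experimental animals, and a skin characteristic (UV damage in the experimental samples, normal in the controls) and the design text describe mouse skin. The labels do not tie libraries to animals. A p-value here therefore speaks only of how these 6 libraries vary, and part of that variation may be technical. The table holds reads aligned to tRNAs alone, so the labelled tissue could not be checked against marker genes. In bulk tissue, fewer cells of a type and less RNA per cell cannot be told apart.

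tRNAs carry amino acids to the ribosome, and mt-Ser-GCT serves the mitochondrial ribosome at serine codons of the AGY kind. In mammals it lacks the whole D arm that other tRNAs fold at their 5′ side, so its anticodon lies close to the 5′ end. It is cut out of a long mitochondrial transcript and receives a CCA tail afterwards. Nucleases such as angiogenin can cut tRNAs within the anticodon loop, and the resulting 5′ and 3′ pieces are known as tiRNAs, while shorter pieces are called tRFs.

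In the files' coordinates mt-Ser-GCT lies at chrM:11606-11665, on a genome build that neither the headers nor the labels settle: the processing notes of the submitters list mm9, a mouse build. It has 60 bases, and 63 with the CCA. The anticodon takes positions 20 to 22, and the 7-base loop, taken as the anticodon with 2 bases on each side, takes positions 18 to 24. The gene for mt-His-GTG (chrM:11538-11605) ends on the base before it, and that for mt-Leu-TAG (chrM:11665-11735) begins on its last base. The mature sequence and its surroundings show how little space lies between the 3 tRNAs. In the mature sequence the capitals mark the anticodon, and in the genomic stretch (chrM:11566-11705, written in the direction of increasing coordinates) they mark the tRNA.
mt-Ser-GCT with CCA: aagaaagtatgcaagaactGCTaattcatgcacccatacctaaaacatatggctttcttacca
mt-Ser-GCT with flanks: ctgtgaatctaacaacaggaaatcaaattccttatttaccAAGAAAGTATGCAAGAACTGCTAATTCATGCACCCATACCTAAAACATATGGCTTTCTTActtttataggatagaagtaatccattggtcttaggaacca

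The fragments the results turn on are the 4 most abundant, which share their 5′ end and stop in the anticodon loop, an example of each kind of inner start, and the most abundant 3′ fragment. Capitals again mark anticodon bases.
1 to 19: aagaaagtatgcaagaact
1 to 20: aagaaagtatgcaagaactG
1 to 18: aagaaagtatgcaagaac
1 to 22: aagaaagtatgcaagaactGCT
5 to 19: aagtatgcaagaact
12 to 25: caagaactGCTaat
26 to 63: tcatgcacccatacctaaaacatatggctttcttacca

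Most reads of mt-Ser-GCT were 5′ fragments that stopped in the anticodon loop. Of the 138406 reads, 119413 began at position 1 or 2 and ended in the loop, 4443 began there and ended short of the loop, and 5051 ran past it. A further 7667 reads were internal, starting at position 3 or later and ending before the last 4 bases, and 1764 were 3′ fragments that ended within those 4. All 5′ fragments together made up 92.0, 89.5 and 89.3% of the reads of mt-Ser-GCT in the experimental libraries, against 97.2, 95.5 and 96.4% in the control libraries. Every experimental library was below every control (exact permutation test, p = 0.1, the smallest that 3 libraries against 3 can give).

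The other mitochondrial tRNAs in the table had few such reads. Pooled, they had 3.73, 3.07 and 1.93% of their reads in 5′ fragments in the experimental libraries, against 1.87, 2.25 and 2.37% in the controls. Among the 18 other mitochondrial tRNAs with at least 100 reads in every library, the group mean was highest for mt-Ile-GAT in the experimental libraries, at 20.1%, and for mt-Pro-TGG in the controls, at 36.8%. The nuclear tRNAs, pooled by reads, were mostly 5′ fragments, with 93.5, 96.1 and 97.4% in the experimental libraries and 90.8, 96.3 and 94.8% in the controls. Taken tRNA by tRNA, the median over 33 nuclear tRNAs was 12.1% in the experimental libraries and 2.20% in the controls.

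The table lists reads of 14 to 40 bases. The 3′ piece left by a cut after position 19 would have 44 bases with its CCA, and that left by a cut after position 22 would have 41, so these partner pieces could not have been listed. The authors' own fragment types did not capture the main product either. 103867 of the 138406 reads were typed "Other", 1 to 19 among them, while 14970 reads were typed tiRNA-5 and 14985 tRF-5b.

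The level of mt-Ser-GCT fragments varied widely between libraries of the same group. The read counts of 37290, 9418 and 28417 in the experimental libraries and 9385, 30826 and 23070 in the controls were 4.25, 0.489 and 1.52% of all tRNA-aligned reads in the experimental libraries, against 1.71, 4.16 and 7.28% in the controls. The lowest library was experimental replicate 2 and the highest control replicate 3, and the groups overlapped (two-sided exact permutation test, p = 0.3). The tRNA-aligned totals behind these shares ran from 876494 to 1927269 reads in the experimental libraries and from 316990 to 740627 in the controls.

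Within the mitochondrial tRNA reads alone, mt-Ser-GCT took 27.3, 19.9 and 18.4% in the experimental libraries and 30.4, 26.3 and 41.5% in the controls. The 2 lowest shares were experimental and the 2 highest were controls, and the groups overlapped only through experimental replicate 1 and control replicate 2 (exact permutation test, p = 0.2). The means differed by -10.9 percentage points, with 21.8% ± 4.78 in experimental and 32.7% ± 7.87 in control libraries (SD, n = 3 each).

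As a sum over its fragments, mt-Ser-GCT had the highest mean of 22 mitochondrial tRNAs in both groups, and ranked 5 of all 69 anticodons tested in the experimental libraries and 3 in the controls. In experimental replicate 3 mt-His-GTG was above it, at 24302 normalised CPM. The level of mt-Ser-GCT was 34774, 5476 and 23986 normalised CPM in the experimental libraries, against 13866, 43938 and 58701 in the controls (CPM, counts scaled to library size after correction by the trimmed mean of M values). The log2 difference between experimental and control libraries was -1.02 (SE 0.84, adjusted p = 0.624 by limma voom over 69 sums). It was -0.21 without experimental replicate 2, -0.52 without control replicate 2, -0.65 without control replicate 3 and -1.65 without control replicate 1, and was not called with any library left out. Of these sums 0% were called in either direction at an adjusted p under 0.05, and 6 had an unadjusted p under 0.05. The 21 other mitochondrial sums had a median log2 difference of -0.23, with 6 positive and 15 negative, beside -0.08 over all 69.

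The 3 tRNA sums whose pattern over the 6 libraries came closest to mt-Ser-GCT were all mitochondrial. The root mean square difference of centred log2 normalised CPM was 0.24 for mt-Asn-GTT, 0.41 for mt-Pro-TGG and 0.42 for mt-Tyr-GTA. The neighbours on the genome had log2 differences of 0.41 for mt-His-GTG (SE 0.90) and -0.90 for mt-Leu-TAG (SE 0.77), with adjusted p of 0.890 and 0.635 by limma voom. The other mitochondrial serine tRNA, mt-Ser-TGA, serves the UCN codons and was rare, averaging 98.1 ± 62.5 normalised CPM in experimental and 109 ± 56.3 in control libraries (SD, n = 3 each).

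The nuclear tRNA with the same anticodon, Ser-GCT, which reads the same codons in the cytosol, had 122, 204 and 145 normalised CPM in the experimental libraries, against 87.2, 58.5 and 84.0 in the controls. All 3 experimental libraries were above all 3 controls, with a log2 difference of 0.95 (SE 0.31) and an adjusted p of 0.189 by limma voom. Its summed level was below that of mt-Ser-GCT in every library.

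Among single sequences, the fragment from 1 to 19 was by far the most abundant, ending on the T before the anticodon. It had 14134, 3507 and 6533 normalised CPM in the experimental libraries, against 7469, 15721 and 28754 in the controls. The groups overlapped, with a log2 difference of -1.13 (SE 0.88, adjusted p = 0.362 by limma voom over 2226 fragments).

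The fragments ending 1 base on either side of it separated the groups with trimmed-mean scaling and not without it. The fragment from 1 to 20, which takes in the first anticodon base, had 2206, 469 and 1203 normalised CPM in the experimental libraries, against 2422, 3952 and 8783 in the controls. The fragment from 1 to 18 had 2422, 578 and 1114 in the experimental libraries, against 2473, 3959 and 6408 in the controls. In both, every experimental library was below every control, with experimental replicate 1 just under control replicate 1. In CPM of all tRNA-aligned reads, with no scaling factor (an alternative chosen after the data were seen), experimental replicate 1 was above control replicate 1 in both, at 2909 against 2275 for 1 to 20 and 3195 against 2322 for 1 to 18, and the groups overlapped. The log2 differences were -2.03 (SE 0.89) for 1 to 20 and -1.78 (SE 0.89) for 1 to 18, with adjusted p of 0.0735 and 0.124 by limma voom, so neither was called. Without experimental replicate 1 both were, with an adjusted p of 0.0191 by limma voom.

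The fragment from 1 to 22, which ends on the last anticodon base, had 2641, 836 and 1508 normalised CPM in the experimental libraries, against 1082, 2255 and 4719 in the controls. These overlapped, with a log2 difference of -0.60 (SE 0.89, adjusted p = 0.654 by limma voom). The other 6 of the 10 most abundant were 1 to 15, 1 to 21, 1 to 25 and the 3 forms of 1 to 19 with another last base. Their log2 differences ran from -1.67 for 1 to 15 to 0.10 for 1 to 19 T19A, and none was called.

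**Figure D1:**
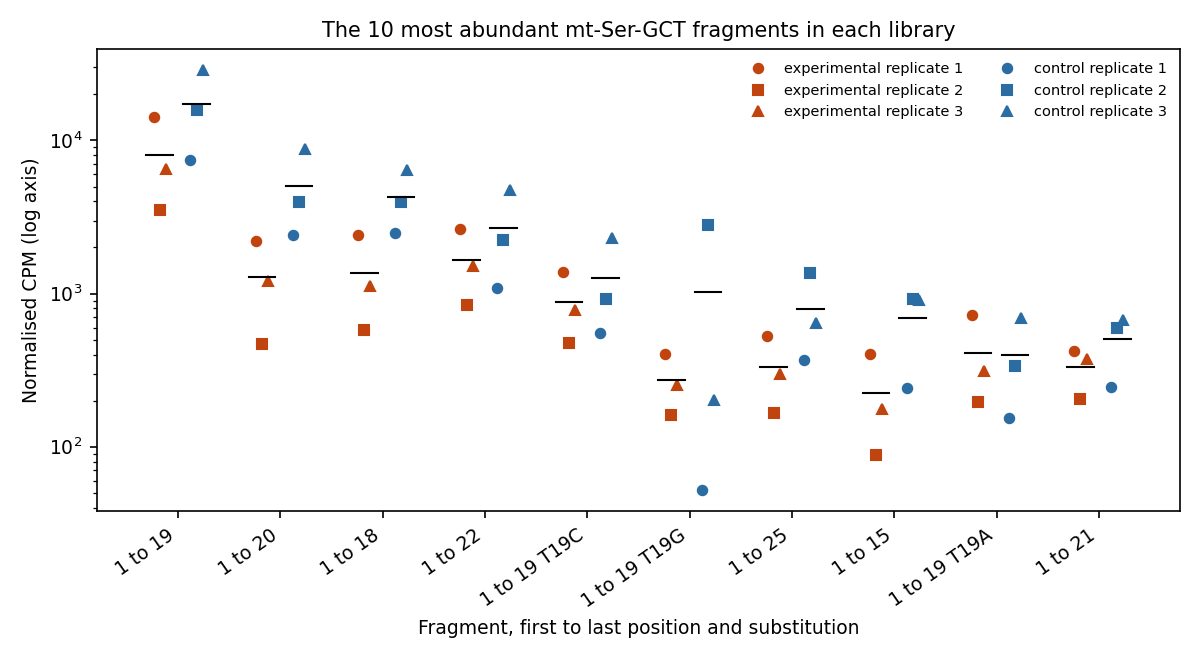
Normalised CPM (log axis) of the 10 most abundant mt-Ser-GCT fragments, named by first and last position, in each of the 3 experimental (red, left) and 3 control libraries (blue, right), with the group mean as a bar. For 1 to 20 and 1 to 18 all experimental libraries lie below all controls on this scale, which they do not without the scaling factors, and control replicate 2 stands far above the other controls for 1 to 19 T19G.

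Of the 2136 sequences, 99 passed the filter on low counts and were tested among 2226 fragments in all. 0 were called higher in the experimental libraries and 2 were called lower, at an adjusted p under 0.05 by limma voom, where 18.7% of all fragments tested were called higher and 7.64% lower. An unadjusted p under 0.05 was reached by 12 of the 99. With limma trend on log2(CPM + 1) the calls were also 0 higher and 2 lower. The count called lower became 7 without experimental replicate 1, 10 without control replicate 1, and 1 without experimental replicate 2 or without control replicate 2. The members tested had a median log2 difference of -0.90, with 26 positive and 73 negative, beside 0.21 over all fragments tested. The median over all fragments depended on the scaling, at 0.21 with trimmed means, 0.01 with median-of-ratios size factors and -0.07 with library totals, while the members lay -1.11, -1.11 and -1.10 from it. That distance was -0.03 without a filter, over all 2136, and -0.43 with exact matches only, and with libraries left out it ran from -1.74 (control replicate 1 left out) to -0.72 (experimental replicate 2 left out).

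By start, the 71 tested sequences that began at position 1 had a median log2 difference of -1.04, with 10 positive and 61 negative, and the 23 that began at position 4 or later had a median of 0.55, with 16 positive and 7 negative. The second median did not keep its sign: it was 0.21 with library totals, -0.31 without a filter, -0.24 without experimental replicate 1 and -0.17 without control replicate 1. Of the 99, the groups did not overlap in 3 with higher and 19 with lower values in the experimental libraries, where 26.1% of all fragments tested were higher and 14.6% lower without overlap. In CPM with no scaling factor these were 2 higher and 15 lower, beside 24% and 16.8% of all fragments. With trimmed-mean scaling, the 3 higher ones were internal, at 6 to 20, 12 to 27 and 13 to 27, and 18 of the 19 lower ones began at position 1. Many of these sequences share both ends and differ in 1 base, so the counts are not over independent items.

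The 2 sequences called lower were both rare and both carried a mismatch. The fragment 1 to 35 C35A (the reference base, its position and the base read) had 9, 10 and 7 reads in the experimental libraries, against 30, 31 and 16 in the controls, or 7.79, 9.63 and 4.21 normalised CPM in the experimental libraries against 58.1, 40.3 and 44.8 in the controls. The fragment 1 to 18 A2G had 8, 1 and 6 reads in the experimental libraries, against 10, 16 and 10 in the controls. The experimental libraries were lower throughout in normalised CPM, with log2 differences of -2.77 (SE 0.96, adjusted p = 0.0202) and -2.73 (SE 1.02, adjusted p = 0.0328) by limma voom. All fragments shared 1 pooled spread in that fit, and with each fragment's own spread the adjusted p were 0.0675 and 0.116, so neither was called, where 1.03% of all fragments were.

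As shares of the tRNA's own reads, the last positions do not depend on how libraries are scaled. They include reads with a mismatched last base, and whether such a base was an added one was not tested. Among reads from 1 to 20 the last base was mismatched in 11.9% in experimental and 5.47% in control libraries on average. Reads ending at position 19 made up 57.0, 54.0 and 52.1% in the experimental libraries, against 49.0, 53.1 and 53.7% in the controls, and overlapped (exact permutation test, p = 0.4). It was the commonest end in every library.

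Reads ending at position 20 made up 9.03, 7.54 and 9.81% in the experimental libraries, against 15.5, 12.4 and 16.3% in the controls. Those ending at position 18 made up 9.53, 7.87 and 8.10% in the experimental libraries, against 16.0, 10.9 and 11.4% in the controls. Both were lower in every experimental library than in every control, by -5.93 and -4.29 percentage points between the means.

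Reads ending at position 22 went the other way, with 10.96, 13.01 and 12.6% in the experimental libraries, against 7.08, 8.06 and 9.10% in the controls, a difference of 4.11 points. Reads ending at 21 or at 25 overlapped between the groups. Of the 8 last positions with at least 1% of the reads in a group, 4 did not overlap (15, 18, 20 and 22), each with an exact permutation p of 0.1 and 0.2 after adjustment over the 8. Over the other tRNAs 49.2% of such last positions did not overlap, a share close to that of mt-Ser-GCT. The mean last position of the 5′ fragments was 19.7 ± 0.168 in experimental and 19.5 ± 0.0849 in control libraries (SD, n = 3 each; exact permutation test, p = 0.3).

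**Figure D2:**
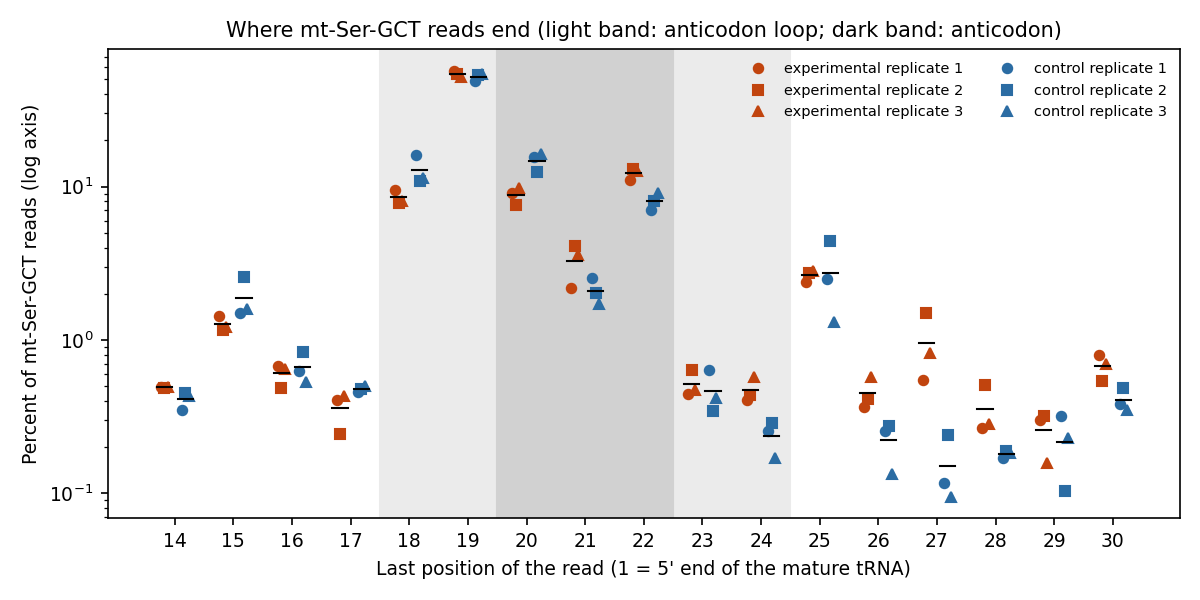
Percent of mt-Ser-GCT reads (log axis) that end at each position from 14 to 30 in the 3 experimental (red, left) and 3 control libraries (blue, right), with group means as bars and the anticodon loop and anticodon shaded. Position 19 holds 49.0 to 57.0% in every library, and the experimental libraries lie below the controls at 18 and 20 and above them at 22.

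Reads that began inside the tRNA took a larger share in every experimental library than in any control. Internal reads made up 7.01, 8.66 and 8.66% of the reads in the experimental libraries, against 2.08, 3.03 and 2.81% in the controls. The means were 8.11% ± 0.951 and 2.64% ± 0.497 (SD, n = 3 each), a ratio of 3.08, with an exact permutation p of 0.1 and 0.4 after adjustment over the 8 position classes. In turn, reads that began at position 1 made up 91.7, 89.2 and 89.0% in the experimental libraries, against 96.9, 95.2 and 95.9% in the controls. The 2 first positions with at least 1% of reads in a group, 1 and 5, both separated the groups (exact permutation p = 0.1, adjusted 0.1), as did 44.5% of such first positions over the other tRNAs.

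As amounts rather than shares, the same reads were not separated. The internal sum was 2160, 716 and 1584 normalised CPM in the experimental libraries, against 362, 1099.8 and 1567 in the controls, a log2 difference of 0.65 (SE 0.73, adjusted p = 0.597 by limma voom over 271 class sums). The sum of 5′ fragments ending in the loop had a log2 difference of -1.05 (SE 0.69, adjusted p = 0.298). Of the 5 class sums of mt-Ser-GCT 0 were called in either direction by limma voom and 0 had an unadjusted p under 0.05, where 8.86% of all class sums were called higher and 5.17% lower.

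The inner starts are given as 2 groups, which were marked off after their values were seen. Listed reads have at least 14 bases, so reads ending at 19 or 20 could not start later than 6 or 7. The upper edge of the first group and the gap after it may reflect this limit, which was not tested. Starts at positions 4 to 7, within the acceptor stem, held 3.02, 3.94 and 4.02% of reads in the experimental libraries, against 0.405, 0.931 and 0.798% in the controls. Starts at positions 12 to 14, shortly before the anticodon loop, held 2.20, 2.42 and 2.23% in the experimental libraries, against 0.746, 0.817 and 0.798% in the controls. The ratios of the means were 5.14 and 2.90, and neither overlapped (exact permutation p = 0.1 each, adjusted 0.1 over the 2).

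The ends that the 2 kinds of inner start could have were limited by read length, since listed reads have at least 14 bases. Of the reads starting at 4 to 7, 81.9% ± 2.83 in experimental and 83.3% ± 4.46 in control libraries ended at 18 to 20 (SD, n = 3 each), the ends that the 5′ fragments also had. Of those starting at 12 to 14, 92.7% ± 0.734 in experimental and 85.2% ± 2.10 in control libraries ended at 25 to 31, past the loop. At 14 bases or more, reads with these starts could not end at 18 to 20 and had to hold the whole anticodon. The different ends of the 2 kinds are therefore not a result of their own.

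The most abundant internal sequence, 5 to 19, had 233, 66 and 225 reads in the experimental libraries, against 9, 42 and 46 in the controls. In normalised CPM it overlapped, with 202, 63.6 and 135 in the experimental libraries and 17.4, 54.6 and 129 in the controls (log2 difference 1.27, SE 0.90, adjusted p = 0.304 by limma voom). The sequence 12 to 25, named after its values were seen, had 102, 11 and 90 reads in the experimental libraries, against 3, 44 and 16 in the controls. It too overlapped in normalised CPM, with a log2 difference of 0.55 (SE 0.93, adjusted p = 0.70 by limma voom).

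**Figure D3:**
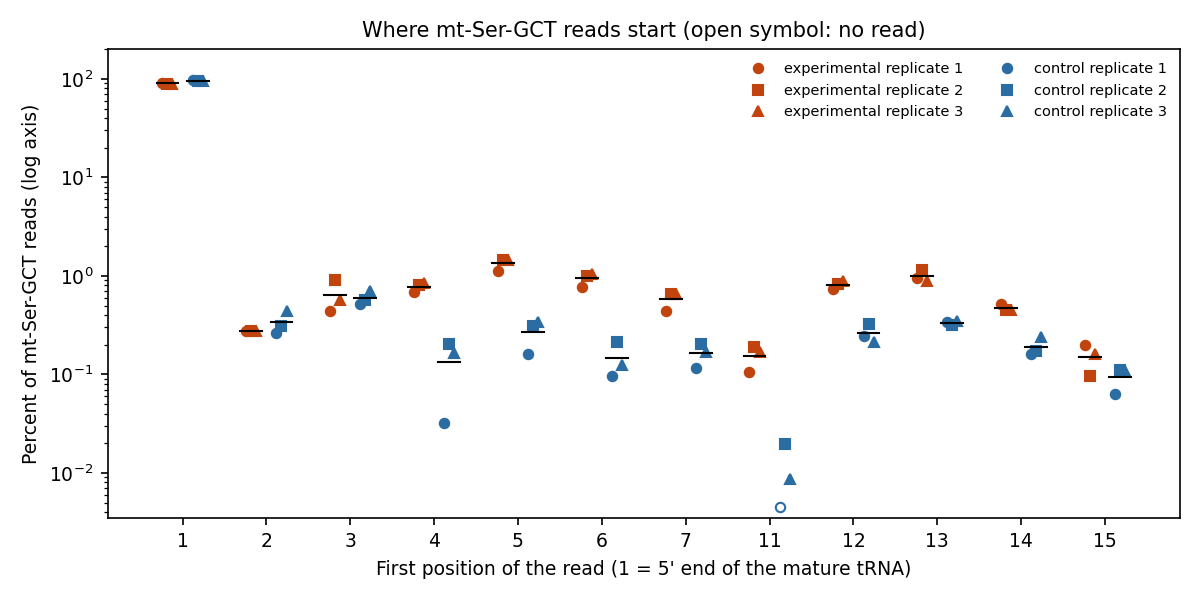
Percent of mt-Ser-GCT reads (log axis) that start at each position, for positions 1 to 7 and 11 to 15, in the 3 experimental (red, left) and 3 control libraries (blue, right), with group means as bars and an open symbol where a library had no read. The experimental libraries lie above the controls at 4 to 7 and at 11 to 14, and just below them at position 1, where every library has 89.0% or more.

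A larger internal share was not particular to mt-Ser-GCT. It was higher without overlap in the experimental libraries in 15 of the 18 other mitochondrial tRNAs (83.3%) and lower in 0%, and in 36.4% of 33 nuclear tRNAs, with 9.09% lower. Pooled over the other mitochondrial tRNAs, internal reads made up 46.5, 51.8 and 53.1% in the experimental libraries, against 21.5, 27.6 and 30.4% in the controls, far above the level in mt-Ser-GCT.

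In proportion, 4 of the other mitochondrial tRNAs differed more than mt-Ser-GCT, whose ratio of means was 3.08. The ratio was 4.46 for mt-Cys-GCA, 4.27 for mt-Asn-GTT, 3.51 for mt-Val-TAC and 3.45 for mt-Thr-TGT, all without overlap. Against the other mitochondrial tRNAs pooled, the difference was smaller in percentage points, at 5.47 in mt-Ser-GCT and 23.9 in the pool. Only in proportion was it larger in mt-Ser-GCT, whose internal share was far lower in both groups. The log2 ratio of its internal share to that of the other mitochondrial tRNAs was -2.73, -2.58 and -2.62 in the experimental libraries, against -3.37, -3.19 and -3.44 in the controls. These did not overlap and differed by 0.69 on the log2 scale (exact permutation test, p = 0.1), a measure chosen after the data were seen. The nuclear serine tRNAs, pooled, had internal shares of 8.62, 11.1 and 8.51% in the experimental libraries and 9.25, 17.5 and 13.8% in the controls, which overlapped (exact permutation test, p = 0.2).

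**Figure D4:**
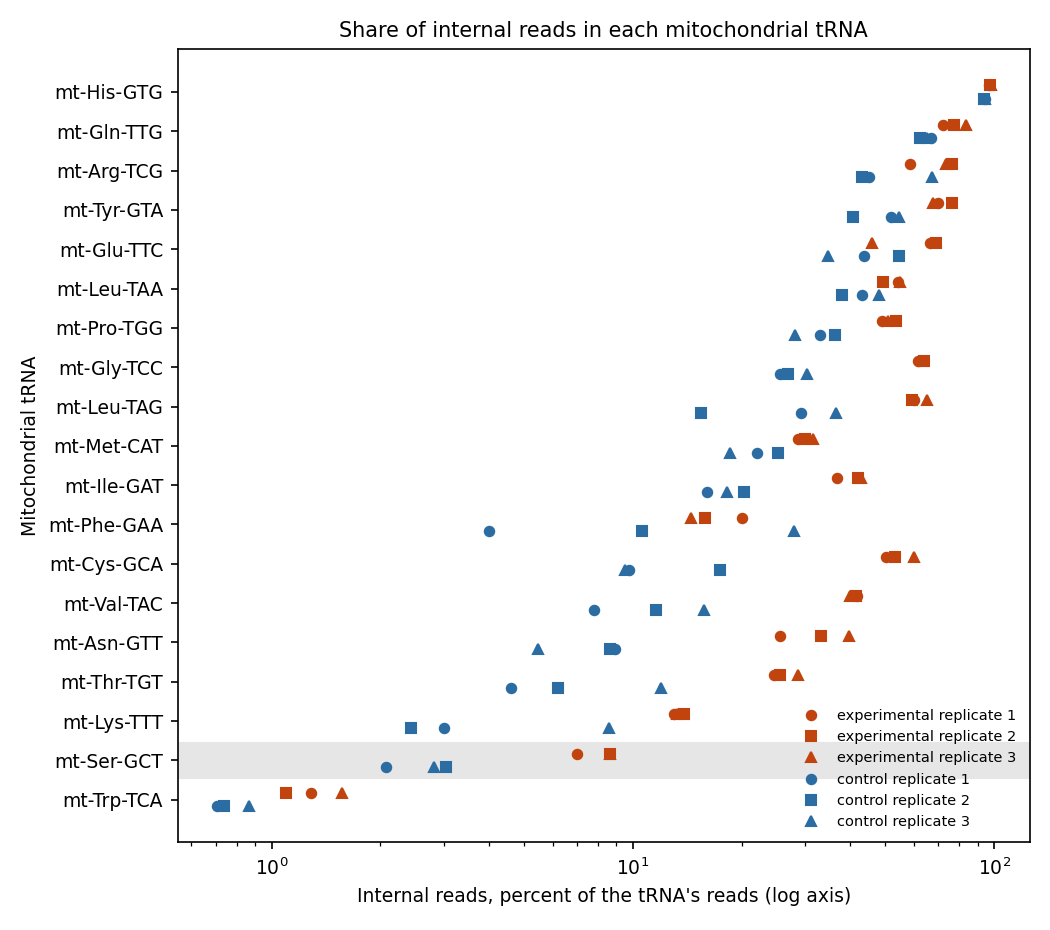
Internal reads as a percent of each mitochondrial tRNA's reads (log axis) in the 3 experimental (red, upper) and 3 control libraries (blue, lower), for mt-Ser-GCT (grey band) and the 18 others with at least 100 reads in every library. In the experimental libraries mt-Trp-TCA alone has lower shares than mt-Ser-GCT, and in 15 of the 18 others all red points lie to the right of all blue ones.

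The 3′ side of the tRNA was hardly seen. Its reads made up 0.971, 1.78 and 1.97% in the experimental libraries, against 0.639, 1.41 and 0.780% in the controls, which overlapped (exact permutation test, p = 0.2, adjusted 0.4). The most abundant, 26 to 63, runs from just past the loop through the CCA and had 37, 18 and 54 reads in the experimental libraries, against 8, 73 and 28 in the controls. The share of 3′ reads with the whole CCA was 78.7, 85.1 and 62.0% in the experimental libraries, against 63.3, 90.1 and 85.0% in the controls. It overlapped as well (exact permutation test, p = 0.6), and the lowest value in any library was 62.0%.

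Reads that ran past an end of the tRNA into the precursor sequence were rarer still. Whether they came from uncut precursor was not tested. 35 sequences with 62 reads began before position 1 and 6 with 6 reads crossed the 3′ end of the tRNA. 0 reads were listed for mt-Ser-GCT wholly in the sequence behind it. That sequence lies within mt-Leu-TAG, which had reads of its own in every library. Whether such reads would be listed under mt-Ser-GCT was not tested, so the 0 sets no upper limit. The 41 sequences that crossed an end, with 68 reads, also belong to a neighbouring tRNA, 35 to mt-His-GTG and 6 to mt-Leu-TAG. The most abundant, 0 to 19, holds the last base of mt-His-GTG and then the main fragment, and had 1, 0 and 6 reads in the experimental libraries, against 3, 2 and 2 in the controls.
0 to 19: caagaaagtatgcaagaact

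Mismatches lay along the fragments as well as at their last base. Among reads from 1 to 19, the last base was mismatched in 15.9% in experimental and 12.5% in control libraries on average. Another base was mismatched in 6.80 and 5.99% of them. Among reads from 1 to 18, the last base was mismatched in 9.34 and 4.12%, and another base in 6.95 and 7.15%. Another base of reads from 1 to 21 was mismatched in 5.33, 6.88 and 6.89% in experimental libraries, against 3.56, 4.54 and 4.28% in controls. For reads from 1 to 25 these shares were 9.01, 9.57 and 10.8%, against 7.86, 6.86 and 7.12%. Neither overlapped (exact permutation test, p = 0.1 each, adjusted 0.3), while the shares at ends 18, 19, 20 and 22 did. Exact matches made up 79.8, 75.5 and 77.4% of reads in the experimental libraries, against 84.4, 78.4 and 84.5% in the controls, which overlapped (exact permutation test, p = 0.2, adjusted 0.4 over 2 measures). With 2 bases left out at each end of a read, only positions 59 and 60 had a mismatch in at least 1% of the reads over them in either group. No position of the 5′ side, where nearly all reads lie, reached that share. The table holds reads with at most 1 mismatch, so reads with more differences were not listed.

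The measures of the last base were chosen after the data were seen. Among reads from 1 to 19 the last base differed from the reference in 14.1, 17.8 and 15.9% in the experimental libraries, against 8.63, 19.5 and 9.41% in the controls. The overlap came from control replicate 2 alone. T19G, the last T read as G, made up 2.26, 3.44 and 2.98% of these reads in the experimental libraries, against 13.4% in control replicate 2 and 0.593 and 0.592% in the other controls. Among reads from 1 to 22, T22G made up 3.14, 5.35 and 3.90% in the experimental libraries, against 17.5% in control replicate 2 and 0.609 and 0.724% in the other controls. Without that library, T19G and T22G were higher in all experimental libraries than in the 2 remaining controls. Control replicate 2 also stood apart among reads from 1 to 20, where 14.4% had a mismatch at another base than the last. This share was 6.31 and 6.89% in the other controls and 6.36, 7.15 and 8.96% in the experimental libraries.

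The mismatched last G of control replicate 2 was not limited to this tRNA. Among 5′ fragments of nuclear tRNAs, 1.19, 1.89 and 1.55% ended on a mismatched G in the experimental libraries, against 5.06% in control replicate 2 and 0.243 and 0.264% in the other controls. Leaving that library out kept the direction of the differences at first position 1, in both groups of inner starts, in the internal share and at last positions 18, 19, 20 and 22.

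Of 18 last-base substitutions at positions 18 to 22 and 25, 11 were higher and 1 was lower in every experimental library than in any control. Over the other tRNAs' reads from position 1, 50% of last-base substitutions were higher and 0% lower without overlap, at ends with at least 100 reads in every library. The 11 were C18A, C18T, T19A, T19C, G20A, G20C, G20T, C21T, T22A, T22C and T25C. T19A made up 4.09, 4.17 and 3.68% of reads from 1 to 19 in the experimental libraries, against 1.76, 1.61 and 2.05% in the controls, and T19C made up 7.77, 10.1 and 9.25% in the experimental libraries, against 6.28, 4.44 and 6.77% in the controls. At position 20, G20A made up 9.57, 12.4 and 9.80% in the experimental libraries, against 5.75, 3.01 and 6.95% in the controls. The ratios of the means were 2.45 for T22A, 1.79 for T22C, 2.20 for C18T, 1.55 for C21T and 1.72 for T25C.

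The 1 that was lower was a mismatched A at position 21. C21A made up 6.31, 6.56 and 4.82% of reads from 1 to 21 in the experimental libraries, against 26.2, 9.41 and 16.8% in the controls. Each of these 12 substitutions had an exact permutation p of 0.1, and 0.15 after adjustment over 18. Nuclear 5′ fragments also ended more often on a mismatched A, at 6.06, 6.81 and 6.63% in the experimental libraries, against 3.96, 2.85 and 4.64% in the controls. For a mismatched C the nuclear shares were 2.52, 3.22 and 2.74% in the experimental libraries, against 0.832, 0.754 and 0.963% in the controls. For a mismatched T the nuclear shares overlapped, with 8.25, 9.62 and 9.82% in the experimental libraries and 12.5, 7.97 and 14.02% in the controls.
The substituted forms of the main fragment follow, with the changed base in capitals.
1 to 19 T19C: aagaaagtatgcaagaacC
1 to 19 T19G: aagaaagtatgcaagaacG
1 to 19 T19A: aagaaagtatgcaagaacA

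**Figure D5:**
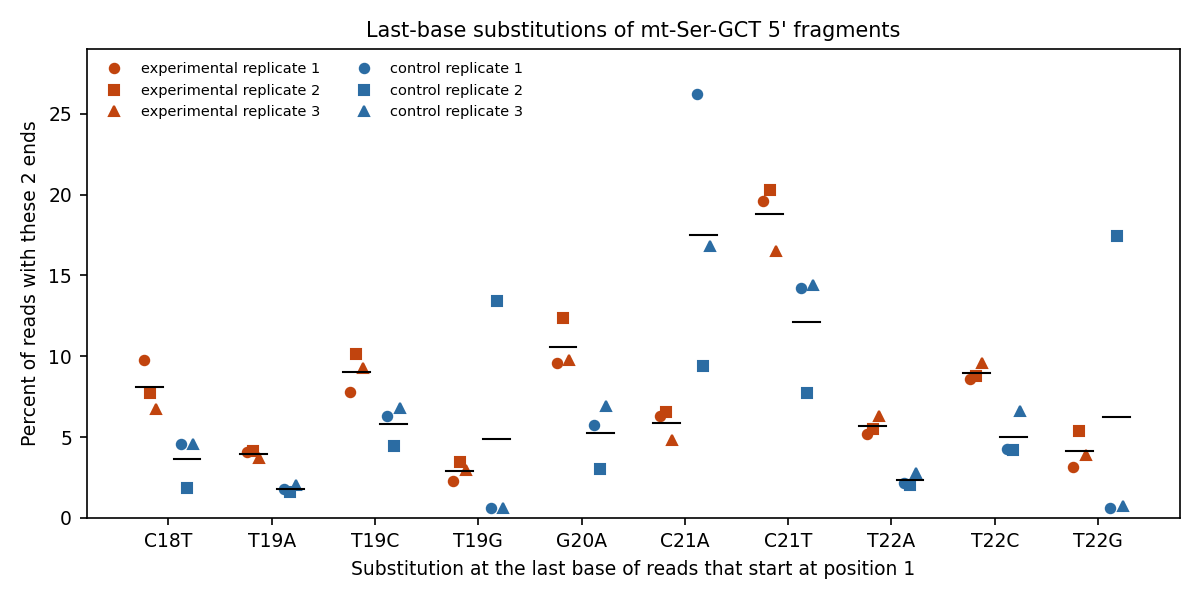
Percent of the reads with the same 2 ends (start at position 1, end at the position named) that carry each substitution at their last base, in the 3 experimental (red, left) and 3 control libraries (blue, right), with group means as bars. Control replicate 2 stands alone at T19G and T22G, and C21A is the substitution with controls above the experimental libraries throughout.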

How the data were processed

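Small RNA of rat muscle was compared between 3 experimental and 3 control libraries. Per the file headers and values, reads collapsed to distinct sequences were aligned to mature tRNAs with CCA and to precursors, and the deposited table gives raw read counts with at most 1 mismatch. The aligner was not given in the sources used here. Because 1812 lines of text stand between the counts, the columns could not be read as a plain count table and limma voom was used. The authors' alignment files of single libraries were not used here.

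Fragments were kept where at least 3 libraries reached the CPM that 10 reads are worth at median depth, with 15 reads over all libraries. They were fitted over the whole table with limma 3.58.1 voom in R 4.3.3 (trimmed mean of M values scaling, log ratio trim 0.3, sum trim 0.05), with Benjamini-Hochberg adjustment and a threshold of 0.05. Sums per anticodon and per position class were fitted alike, with a sequence on several tRNAs split equally. Shares within the tRNA were compared by two-sided exact permutation tests. Mismatch shares were taken at positions with 30 reads in each group. PCR reads without molecular identifiers are not independent molecules.

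The members and lists were chosen with earlier results of these data known. Named are the 10 most abundant members, those called, the most abundant of each class and with a mismatch, and the most abundant shared with another mitochondrial tRNA. Of the tRNA sums, both serine GCT tRNAs, mt-Ser-TGA, the neighbours and the 3 most alike are named. Alternatives were other scalings (CPM of all tRNA-aligned reads with no factor was added after the data were seen), no filter, each feature's own spread, limma trend on log2(CPM + 1), exact matches only, mature tRNAs only, the replicate block, and each library left out.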

Additional observations from a re-analysis of the deposited data

How the results depend on the processing

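Calls among mt-Ser-GCT fragments depended on the settings. The 2 called lower became 4 with median-of-ratios size factors, 1 with library totals, 22 without a filter, and 0 both with each feature's own spread and with exact matches only. With a library left out they ran from 1 to 10 (7 without experimental replicate 1, 10 without control replicate 1, 1 without experimental replicate 2 and 1 without control replicate 2). The 0 called higher became 11 without a filter and ran from 0 to 1 with a library left out. Without experimental replicate 1 the fragments 1 to 20, 1 to 18 and 1 to 15 were called lower. The cause was not tested.

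Several log2 differences that were not called changed sign. With a library left out, the 3′ class sum ran from -1.08 to 0.21 (positive without experimental replicate 2, control replicate 2 or control replicate 3), the internal sum from -0.14 (without control replicate 1) to 1.13, 1 to 19 T19C from -0.998 to 0.046 (without experimental replicate 2), T19G from -1.47 to 1.29 (without control replicate 2), T19A from -0.60 (without experimental replicate 1) to 0.59, and 12 to 25 from -0.42 (without control replicate 1) to 1.48. Without a filter T19C was 0.030 and T19G 0.13, and T19A was -0.12 scaled by library totals and -0.094 by median-of-ratios factors.

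With a library left out, the difference in whole CCA ran from -12.3 to 2.45 points, being 2.45 without experimental replicate 3 and 1.10 without control replicate 2. That in last-base T19G ran from -4.13 to 2.30 and that in T22G from -4.96 to 3.46, both highest without control replicate 2. The internal share differed by 5.19 to 6.02 points and first position 1 by -6.89 to -5.56. With 2 libraries in a group, an exact test cannot reach 0.05 either.

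With the replicate number as a block, 0 members were called higher and 2 lower (367 and 141 of all fragments), and the mt-Ser-GCT sum changed to -0.98. Deviations of same-numbered libraries correlated at -0.310, -0.0573 and 0.136 over fragments and at -0.342, -0.617 and 0.398 over tRNA sums. Taken from means of only 3 libraries, these cannot show whether same-numbered libraries belong together, and the labels do not tie them to animals. In the fragment fit 99 of 2136 members passed the filter on low counts.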
